A study of Mus musculus with 6 samples.

Results

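The genes described here are 39 genes of resident, inflammatory and repair macrophages, measured in dorsal skin of Cbl-b-/- and wild-type (WT) mice after ultraviolet B (UVB) irradiation. They were chosen by symbol from a fixed list that was drawn up with earlier results of these data known. Each of the 39 has exactly 1 row with a single gene symbol among the 35556 transcript clusters of the array table. The samples were 3 Cbl-b-/- mice, which lack the E3 ubiquitin ligase Cbl-b, and 3 WT mice of the BL6 strain, matched for age and sex (neither given in the sources used here). Both genotypes were shaved on the back and received 80 mJ/cm2 of UVB once, and skin was taken 24 h later. Each mouse was measured on 1 Affymetrix Mouse Gene 1.0 ST array, so replicates are animals. Loss of Cbl-b was in the whole animal, so the arrays do not separate macrophages that lack Cbl-b from other skin cells that lack it.

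Macrophages are phagocytes of the tissue that take up dying cells, pathogens and debris. Some live in the dermis for long periods, and others arise from blood monocytes that enter inflamed skin. Colony-stimulating factor 1 acting on its receptor Csf1r keeps them alive, and the transcription factor PU.1 (Spi1) sets their identity. After UVB, macrophages and monocytes in skin clear apoptotic keratinocytes, and they release mediators that can promote or dampen inflammation. Cbl-b is known from other cells as a brake on signaling by receptors that carry or recruit immunoreceptor tyrosine-based activation motifs (ITAMs), a class that includes the activating Fc receptors of macrophages.

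Vsig4 was the 1 gene of the 39 that met the study's thresholds, and it was not above background in WT skin. It encodes a receptor of resident macrophages for complement fragments, and it was higher in irradiated Cbl-b-/- skin. The 3 Cbl-b-/- arrays read 5.25, 6.04 and 6.36 on the log2 scale, against 5.18, 4.41 and 4.22 in the WT arrays (replicates 1, 2 and 3 in each genotype). The genotypes did not overlap, although Cbl-b-/- replicate 1 and WT replicate 1 lay close together. All 3 WT arrays and Cbl-b-/- replicate 1 lay below a background level of 5.43, the 95th percentile of olfactory receptor rows. The means were 5.88 ± 0.57 in Cbl-b-/- and 4.61 ± 0.51 in WT skin (SD, n = 3 each). The log2 fold change, Cbl-b-/- minus WT, reached 1.28 with a standard error of 0.35, and p adjusted over all transcript clusters in limma was 0.685. It ran from 1.04 to 1.59 over the 6 fits that each dropped an array. At an unadjusted p of 0.0096 from limma, the linear model fitted to the whole table, and a fitted 2.42-fold difference, Vsig4 met the thresholds of the study (a p under 0.05, read as unadjusted, with at least a 1.5-fold difference), and it met them in the methods' test as well. With the WT arrays set to the background level, the values give 1.37-fold higher Vsig4 in Cbl-b-/- skin, under the 1.5-fold threshold. Cbl-b-/- replicate 1 was kept at its reading of 5.25, also under that level, so 1.37-fold is not a strict lower bound.

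The promoter windows of 3 members are shown because Vsig4 and Trem2 were the members with an unadjusted p under 0.05, and Cd163 was the surface receptor with the lowest log2 fold change. Each window runs from 250 bases before to 50 bases after a gene start listed by RefSeq (build GRCm38.p6). They are written 5′ to 3′ along the gene, and capitals mark matches on either strand to any of 4 motifs: GAGGAA (the core bound by PU.1), TGANTCA (AP-1), TTGCNNAA (C/EBP) and TGCTGA (the core of a MAF site). The windows lie at chrX:96293389-96293688 on the minus strand (Vsig4), chr17:48346151-48346450 on the plus strand (Trem2) and chr6:124304401-124304700 on the plus strand (Cd163).
Vsig4: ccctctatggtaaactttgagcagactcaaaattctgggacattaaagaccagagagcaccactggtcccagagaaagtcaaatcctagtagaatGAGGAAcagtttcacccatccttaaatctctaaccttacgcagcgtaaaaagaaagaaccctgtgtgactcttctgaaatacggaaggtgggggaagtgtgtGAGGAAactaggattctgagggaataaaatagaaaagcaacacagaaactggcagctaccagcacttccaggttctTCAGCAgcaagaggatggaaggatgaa
Trem2: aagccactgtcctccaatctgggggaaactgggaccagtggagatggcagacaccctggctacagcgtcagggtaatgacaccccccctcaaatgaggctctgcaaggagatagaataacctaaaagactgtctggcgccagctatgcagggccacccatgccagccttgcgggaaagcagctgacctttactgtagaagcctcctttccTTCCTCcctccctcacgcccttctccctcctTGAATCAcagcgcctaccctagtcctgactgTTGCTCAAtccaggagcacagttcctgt
Cd163: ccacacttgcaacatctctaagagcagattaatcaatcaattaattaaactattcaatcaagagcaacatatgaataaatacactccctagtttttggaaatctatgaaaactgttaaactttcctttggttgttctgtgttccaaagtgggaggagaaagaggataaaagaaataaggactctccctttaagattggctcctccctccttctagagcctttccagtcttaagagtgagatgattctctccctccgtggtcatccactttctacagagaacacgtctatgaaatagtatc
The Vsig4 window holds 2 copies of the PU.1 core, starting 155 and 53 bases before the start site, and 1 MAF core on the opposite strand after it. The Trem2 window holds 1 PU.1 core, on the opposite strand, 1 AP-1 site, which reads as a match on both strands, and 1 C/EBP site. None of the 4 motifs matched in the Cd163 window. Over the 30 members with a window, 17 held the PU.1 core (56.7%) and 11 the MAF core (36.7%), against 28.3% and 19.1% of 27025 windows of the same length. AP-1 matched in 13.3% and C/EBP in 13.3% of the members' windows, against 7.93% and 10.8% of all windows. A match describes letters in the window and is not a measured binding site.

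Among the 39 macrophage genes, Vsig4 alone passed the thresholds as higher in Cbl-b-/- skin, and 0 passed as lower. The 1 gene called is 2.56% of the list, against 1.22% of all 35556 transcript clusters (0.276% higher and 0.945% lower) and 0.496% of the 21789 with 1 gene symbol (0.216% higher and 0.28% lower). Because the list was drawn up with earlier results of these data known, these shares describe it and do not test it. At an adjusted p under 0.05, 0 of the 39 passed in limma, against 0.00281% of all transcript clusters. At an unadjusted p under 0.05 there were 2, Vsig4 and Trem2, or 5.13%, against 6.55% of all transcript clusters and 5.35% of those with 1 gene symbol. The methods' test called 1 of the 39 at both thresholds, against 0.751% of all transcript clusters and 0.289% of those with 1 gene symbol. The fitted log2 fold changes ran from -0.78 (Chil3) to 1.28 (Vsig4), both of them genes with 1 group mean under background, with 18 above 0 and 21 below. Their median was -0.03, and the median over all transcript clusters was 0.02. In 28 of the 39 genes the difference between genotypes was smaller than the pooled SD of the replicates. The share of all transcript clusters with so small a difference was not computed, so whether this count is particular to macrophage genes is not known. Leaving out 1 array changed which genes were called. Without WT replicate 1, Cd68 (0.61) and Stab1 (0.66) met the thresholds as higher beside Vsig4, and without Cbl-b-/- replicate 2, Cd36 (0.86) did so as higher while Cd14 (-0.61) and Chil3 (-1.25) did so as lower. Without WT replicate 3, Cd163 (-0.83) met them as lower. Cd14 and Stab1 were named after their values were seen.

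**Figure D1:**
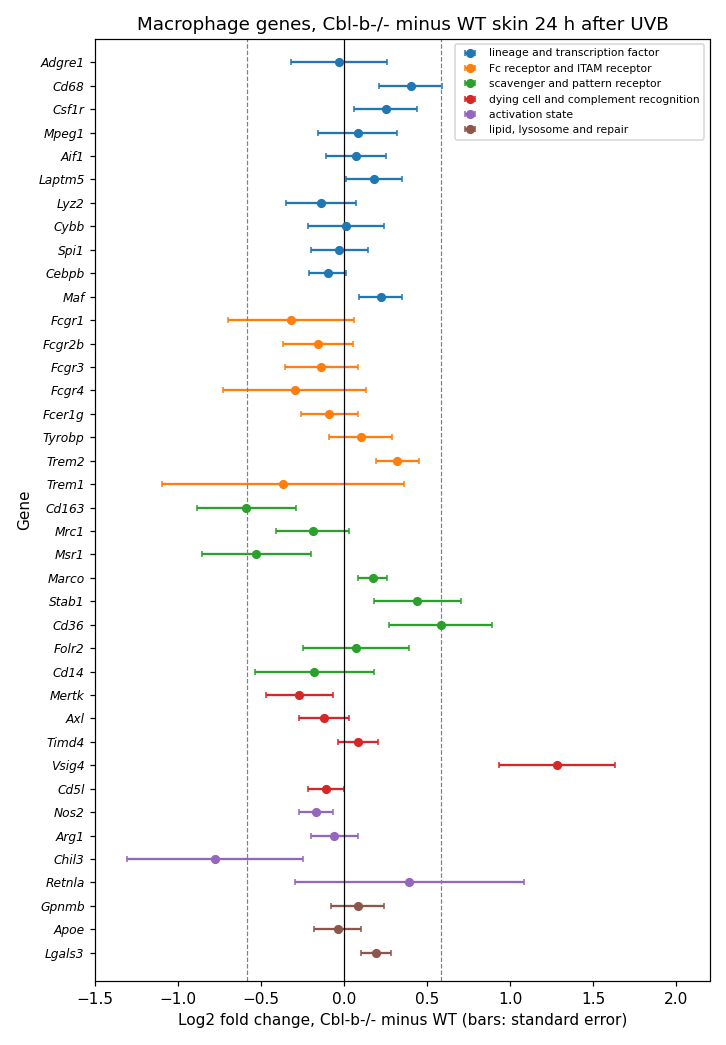
Difference between the genotypes for each of the 39 macrophage genes (vertical axis, coloured by role), as log2 fold change of Cbl-b-/- over WT skin (horizontal axis). Each point is the limma value with its standard error as a bar, and the broken vertical lines stand at 1.5-fold. Vsig4 is plotted at 1.28 and Chil3 at -0.78, and each has 1 group mean under the background level of 5.43, so the sizes of these differences are uncertain.

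Most of the macrophage genes were high in the same mouse of each genotype. Cbl-b-/- replicate 2 gave the highest value of its genotype in 25 of the 39 genes, and WT replicate 1 gave the highest value of its genotype in 34. WT replicate 1 was also the highest of all 6 arrays in 20 genes, and WT replicate 3 was the lowest of all 6 in 15. The mean level over the 39 genes was 8.24, 8.47 and 8.21 in the Cbl-b-/- arrays, against 8.62, 8.20 and 8.09 in the WT arrays. The shares of all transcript clusters with these orders were not computed. WT replicate 1 was also the highest WT array in the mean of adipocyte genes (8.78, 8.49 and 8.07) and skeletal muscle genes (10.58, 10.46 and 9.80). The same held for the neutrophil, mast cell, dendritic cell, and T and NK cell lists. WT replicate 2 was highest for keratinocyte and fibroblast genes, and WT replicate 3 for hair follicle, melanocyte and red cell genes. The median over the genes of the pooled SD within a genotype was 0.29, against 0.14 over all transcript clusters. In bulk skin, a higher value from more macrophages cannot be told apart from a higher value from more RNA per macrophage. WT replicate 3 also stood apart in genes of the hair follicle and of melanocytes. The mean level over 17 hair follicle genes was 5.72 to 7.10 in the Cbl-b-/- arrays and 5.51, 5.62 and 9.28 in the WT arrays. Over 9 melanocyte genes it was 5.92 to 6.25 in the Cbl-b-/- arrays and 5.93, 6.09 and 8.02 in the WT arrays. The part of either in the macrophage values was not tested.

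**Figure D2:**
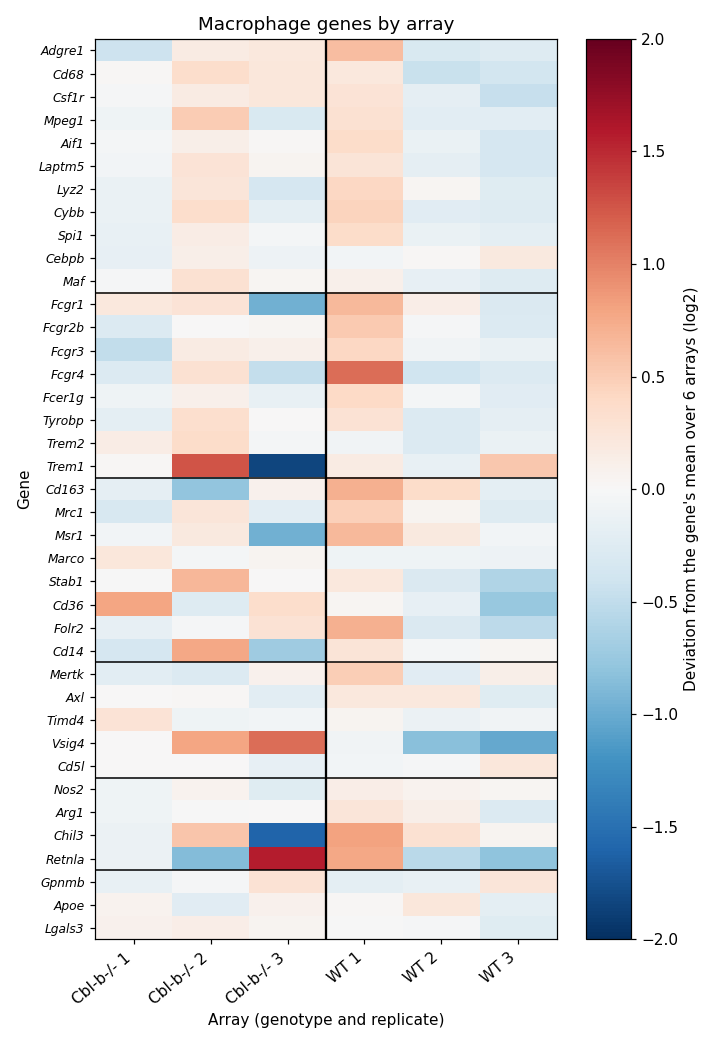
Deviation of each array (horizontal axis, genotype and replicate number) from the gene's own mean over 6 arrays (colour, log2), for the 39 macrophage genes (vertical axis), with lines between roles. Cbl-b-/- replicate 2 and WT replicate 1 are the highest arrays of their genotypes in 25 and 34 genes, and Vsig4 is among the 11 genes with their highest Cbl-b-/- value in replicate 3.

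The genes that define the lineage did not separate the genotypes. None of the 11 lineage markers and transcription factors met the thresholds, and their log2 fold changes ran from -0.14 to 0.40. Adgre1, which encodes the macrophage surface protein F4/80, read 8.03, 8.62 and 8.66 in Cbl-b-/- skin, against 9.07, 8.14 and 8.19 in WT skin. The log2 fold change of this gene was -0.03 (standard error 0.29), and the sign turned to 0.27 without WT replicate 1 and to 0.18 without Cbl-b-/- replicate 1. Csf1r, the receptor for colony-stimulating factor 1, read 8.42, 8.60 and 8.67 in Cbl-b-/- skin, against 8.71, 8.26 and 7.98 in WT skin. All 3 Cbl-b-/- values of Csf1r lay within the range of the WT values. Cd68, a lysosomal glycoprotein of phagocytes, read 10.20, 10.52 and 10.40 in Cbl-b-/- skin, against 10.39, 9.73 and 9.80 in WT skin. The overlap of Cd68 rested on WT replicate 1 alone, and the log2 fold change reached 0.40 (standard error 0.19, adjusted p = 0.751 from limma). The transcription factors differed by less than their replicate spread for Spi1 (-0.03, standard error 0.17) and Cebpb (-0.10, standard error 0.11), while Maf, a factor of resident macrophages, stood at 0.22 (standard error 0.13), with unadjusted p = 0.149 from limma. Lyz2, the lysozyme of myeloid cells (-0.14), Cybb, the catalytic chain of the phagocyte oxidase (0.01), Mpeg1, a pore-forming protein of phagosomes (0.08), Aif1, an actin-binding protein (0.07), and Laptm5, a lysosomal membrane protein (0.18), were all below their pooled SD.

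Fc receptors and the receptors that signal through ITAM adaptors stayed on both sides of 0. Of the 8 genes, 6 had a log2 fold change below 0, and 0 met the thresholds. Trem2, a lipid-binding receptor of macrophages that take up debris, lay higher in every Cbl-b-/- array. It read 6.62, 6.84 and 6.43 in Cbl-b-/- skin, against 6.40, 6.20 and 6.33 in WT skin. The gap between the closest arrays of the genotypes was small, and the log2 fold change of 0.32 (standard error 0.13, unadjusted p = 0.0421 and adjusted p = 0.749 from limma) was under the fold threshold. Its adaptor Tyrobp stood at 0.10 (standard error 0.19), and Fcer1g, the adaptor shared by the activating Fc receptors and also made by mast cells, at -0.09 (standard error 0.17). Among the receptors for immunoglobulin G, the high-affinity Fcgr1 stood at -0.32 (standard error 0.38), the inhibitory Fcgr2b at -0.16 (standard error 0.21), Fcgr3 at -0.14 (standard error 0.22) and Fcgr4 at -0.30 (standard error 0.43). These receptors are close paralogs, and cross-hybridization between their probes was not tested. Fcgr4 read 7.22, 7.80 and 7.02 in Cbl-b-/- skin, against 8.61, 7.10 and 7.22 in WT skin, and WT replicate 1 alone carried its lower mean in Cbl-b-/-. Without that array its log2 fold change was 0.19. Of 11 measured genes of Fc and ITAM signaling (kinases, adaptors, phosphatases, a phospholipase, an exchange factor and the inhibitory receptor Pirb), 0 met the thresholds, with a median log2 fold change of -0.01. The kinase gene Syk stood at -0.01 (standard error 0.27).

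Trem1, which amplifies inflammatory responses of neutrophils and monocytes, was the most variable of the 39 genes. It read 6.91, 8.15 and 5.05 in Cbl-b-/- skin, against 7.06, 6.74 and 7.42 in WT skin, with a pooled SD of 1.13. Its highest and its lowest value both came from Cbl-b-/- mice. Cd14, the co-receptor for bacterial lipopolysaccharide, followed the same order in Cbl-b-/- skin, with 7.55, 8.66 and 7.17, against 8.14, 7.85 and 7.92 in WT skin. Chil3, a chitinase-like protein of alternatively activated macrophages that neutrophils also make, read 5.66, 6.33 and 4.17 in Cbl-b-/- skin, against 6.59, 6.09 and 5.83 in WT skin. For Chil3 the log2 fold change reached -0.78 (standard error 0.53, adjusted p = 0.796 from limma), and it was -0.18 without Cbl-b-/- replicate 3. Its Cbl-b-/- mean of 5.39 lay under the background level. The mean level of 13 neutrophil genes had this order within Cbl-b-/- skin too, with 6.37, 7.57 and 6.05 in Cbl-b-/- arrays, against 6.93, 6.65 and 6.66 in WT arrays. Within WT skin, Trem1 and Chil3 did not share the order of the neutrophil means. Of those 13, 5 lay under the background level given below, and 0 met the thresholds. The part of neutrophils in the values of Trem1, Cd14 and Chil3 was not tested.

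**Figure D3:**
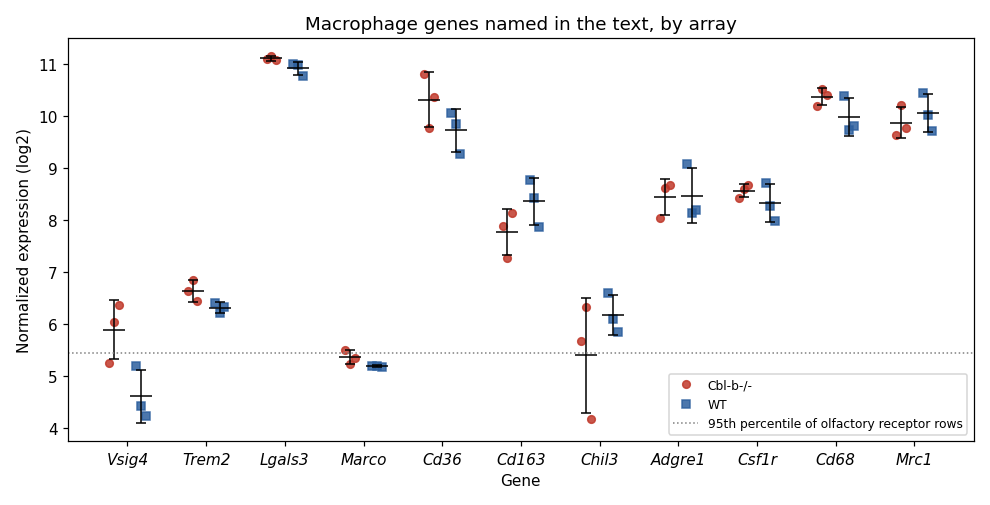
Array values (vertical axis, normalized log2 expression) of 11 macrophage genes (horizontal axis). Red circles are the 3 Cbl-b-/- arrays and blue squares the 3 WT arrays, with black marks for mean and SD, and the dotted line is the 95th percentile of olfactory receptor rows (5.43). Vsig4, Trem2, Lgals3 and Marco show no overlap between genotypes, and the 3 WT values of Vsig4 lie under the dotted line.

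Scavenger receptors split in direction. Of 8, 4 had a log2 fold change above 0 and 4 below, and 0 met the thresholds. Cd163, the receptor for haptoglobin-hemoglobin complexes on resident macrophages, read 7.88, 7.27 and 8.14 in Cbl-b-/- skin, against 8.77, 8.42 and 7.87 in WT skin. WT replicate 3 lay inside the Cbl-b-/- range, and the log2 fold change reached -0.59 (standard error 0.30, adjusted p = 0.755 from limma). Array weights, which give noisier arrays less influence, placed Cd163 past the thresholds as lower (-0.65, unadjusted p = 0.0341 from limma). Msr1, scavenger receptor A for modified lipoproteins, stood at -0.53 (standard error 0.33), and Mrc1, the mannose receptor, read 9.64, 10.21 and 9.76 in Cbl-b-/- skin, against 10.44, 10.02 and 9.71 in WT skin, with overlapping genotypes. On the other side of 0 were Stab1, a scavenger receptor that endothelium also expresses (0.44, standard error 0.26), and Cd36, a receptor for fatty acids and oxidized lipids. Cd36 read 10.81, 9.76 and 10.37 in Cbl-b-/- skin, against 10.06, 9.85 and 9.26 in WT skin. Its log2 fold change came to 0.58 (standard error 0.31; adjusted p = 0.762 from limma). Adipocytes also make Cd36, and the mean level of 9 adipocyte genes was 9.36, 7.60 and 9.18 in Cbl-b-/- arrays, against 8.78, 8.49 and 8.07 in WT arrays, the same order of arrays within each genotype as Cd36. Its part in the Cd36 values was not tested. Folr2, the folate receptor of resident macrophages, stood at 0.07 (standard error 0.32). Marco, a scavenger receptor of class A, lay higher in every Cbl-b-/- array (5.50, 5.23 and 5.33, against 5.19, 5.19 and 5.17 in WT), but its means lay under the background level and its log2 fold change was 0.17 (standard error 0.09).

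Among the 5 genes for recognition of dying cells and complement, the 4 other than Vsig4 did not meet the thresholds. Mertk and Axl, tyrosine kinases that bind phosphatidylserine on apoptotic cells through bridging proteins, stood at -0.27 (standard error 0.20) and -0.12 (standard error 0.15), and Timd4, which binds phosphatidylserine directly, at 0.08 (standard error 0.12). Cd5l, a secreted scavenger protein, lay under the background level in all 6 arrays. As a background level, the 95th percentile of 1035 olfactory receptor rows (5.43) was used, on the assumption that few of these receptors are transcribed in skin. Vsig4 lay above it in 2 of 3 Cbl-b-/- arrays and in 0 of 3 WT arrays. The WT mean of Aif1 and the Cbl-b-/- mean of Chil3 also lay under 5.43, and both means did for Marco and Cd5l, so 34 of the 39 genes had both means above it.

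Genes of the activation states showed no common direction. Nos2, the inducible nitric oxide synthase of inflammatory macrophages, read 5.86, 6.01 and 5.71 in Cbl-b-/- skin, against 6.08, 6.02 and 5.99 in WT skin. The log2 fold change of this gene was -0.17 (standard error 0.10). Arg1, the arginase of repair macrophages, stood at -0.06 (standard error 0.14). Retnla, a secreted protein induced by interleukin-4 and interleukin-13, read 8.35, 7.60 and 10.04 in Cbl-b-/- skin, against 9.24, 7.93 and 7.67 in WT skin, and Cbl-b-/- replicate 3 alone placed its Cbl-b-/- mean above that of WT. Without that array its log2 fold change was -0.30. Of the genes tied to lipid handling and repair, Lgals3, the galactose-binding lectin galectin-3 of macrophages and keratinocytes, lay higher in every Cbl-b-/- array, with 11.10, 11.15 and 11.07 against 11.00, 10.98 and 10.76 in WT. Its log2 fold change came to 0.19 (standard error 0.09; adjusted p = 0.754 from limma). Apoe, the lipid carrier apolipoprotein E (-0.04, standard error 0.14), and Gpnmb, a lysosomal glycoprotein of macrophages and melanocytes (0.08, standard error 0.16), differed by less than their pooled SD. Gpnmb was highest in its genotype in Cbl-b-/- replicate 3 (10.05) and WT replicate 3 (10.00), the arrays with the highest mean of hair follicle genes in their genotypes. WT replicate 3 also had the highest mean of melanocyte genes (8.02), and their part in the Gpnmb values was not tested.

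In total 4 of the 39 genes (Vsig4, Trem2, Marco and Lgals3) had all 3 Cbl-b-/- values above all 3 WT values, or 10.3%, against 8.66% of all transcript clusters and 9.5% of those with 1 gene symbol. The reverse, all Cbl-b-/- values below all WT values, occurred in 0 of the 39, against 4.89% and 4.11%.

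Macrophage genes outside the 39 added 3 that met the thresholds as higher, of 25 measured in a further list of tissue macrophage genes, with 0 lower and a median log2 fold change of 0.09. They are 12% of a list drawn up with earlier results of these data known, against 0.276% of all transcript clusters and 0.216% of those with 1 gene symbol called higher. Mmp12, the macrophage elastase, read 6.88, 7.78 and 8.09 in Cbl-b-/- skin, against 6.48, 6.75 and 6.14 in WT skin. Ccl24, a chemokine for eosinophils made by alternatively activated macrophages, read 6.49, 7.25 and 7.67 in Cbl-b-/- skin, against 6.45, 6.31 and 6.35 in WT skin. Hmox1, the heme oxygenase induced by heme and oxidative stress, read 11.09, 10.94 and 10.89 in Cbl-b-/- skin, against 10.88, 10.17 and 9.98 in WT skin. In Vsig4, Mmp12 and Ccl24 alike, Cbl-b-/- replicate 3 read highest and Cbl-b-/- replicate 1 lay nearest to WT, while Hmox1 was highest in Cbl-b-/- replicate 1. The log2 fold changes were 1.13 (standard error 0.32) for Mmp12, 0.77 (standard error 0.28) for Ccl24 and 0.63 (standard error 0.23) for Hmox1, with adjusted p = 0.708 to 0.749 from limma. Mmp12 met the thresholds with each array left out in turn, whereas Ccl24 and Hmox1 did so in 1 of 6 such fits each, and neither met them in the methods' test. The complement chains C1qa (0.27), C1qb (0.09) and C1qc (-0.10), made in skin largely by macrophages, did not meet them, although C1qa did without WT replicate 1 (0.62).

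Genes of monocyte entry gave values mostly below 0. Of 11 measured, 8 had a log2 fold change below 0, with a median of -0.26, and 0 met the thresholds or separated the genotypes. The chemokine receptor gene Ccr2, which draws monocytes from blood, read 8.63, 9.02 and 7.85 in Cbl-b-/- skin, against 9.44, 8.90 and 8.65 in WT skin (log2 fold change -0.50, standard error 0.33, unadjusted p = 0.181 from limma). Its ligand genes Ccl2 (-0.70, standard error 0.38) and Ccl12 (-0.66, standard error 0.27) overlapped between genotypes. Ccl12 passed in 2 of 6 fits with 1 array left out, with values of -0.93 to -0.43 over the 6. Those of Ccr2 ran from -0.76 to -0.17 and those of Ccl2 from -0.96 to -0.27. The mean level of the 11 genes was 8.28, 8.47 and 7.95 in Cbl-b-/- arrays, against 8.79, 8.36 and 8.42 in WT arrays. Above 0 were 3 of the 11, among them the chemokine receptor gene Cx3cr1 (0.18, standard error 0.11). The growth factors Csf1 (0.05) and Il34 (0.10), which sustain macrophages and Langerhans cells, did not meet the thresholds, nor did any of the 7 colony-stimulating factors and receptors. Syk, the C1q chains, Ccr2, Cx3cr1, Ccl2, Ccl12, Csf1 and Il34 were named after their values were seen.

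In the machinery for uptake of dying cells, 0 of 22 measured genes met the thresholds, with a median log2 fold change of 0.05. Mfge8, a secreted bridge between phosphatidylserine and integrins, lay higher in every Cbl-b-/- array. It read 9.78, 9.36 and 9.56 in Cbl-b-/- skin, against 9.01, 9.13 and 8.94 in WT skin. The log2 fold change of this gene was 0.54 (standard error 0.12, unadjusted p = 0.00421 and adjusted p = 0.685 from limma), just under the fold threshold. It met the thresholds in 2 of 6 fits with 1 array left out (0.64 with Cbl-b-/- replicate 2 dropped, 0.59 with WT replicate 2 dropped). Sirpa, the receptor of phagocytes for the restraining signal CD47, read 9.96, 9.93 and 9.94 in Cbl-b-/- skin, against 9.87, 9.73 and 9.70 in WT skin, which gives a log2 difference of 0.18 (standard error 0.08). These 2 are 9.09% of the 22, against 8.66% of all transcript clusters without overlap as higher. Dock1, named after its values were seen, lay lower in every Cbl-b-/- array (7.71, 7.94 and 7.77, against 7.99, 7.99 and 7.95 in WT). Its log2 fold change was -0.17 (standard error 0.09). It was the 1 such gene of the 22, a share close to the 4.89% of all transcript clusters. Of 4 measured further subunits of the phagocyte oxidase, 0 met the thresholds.

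**Figure D4:**
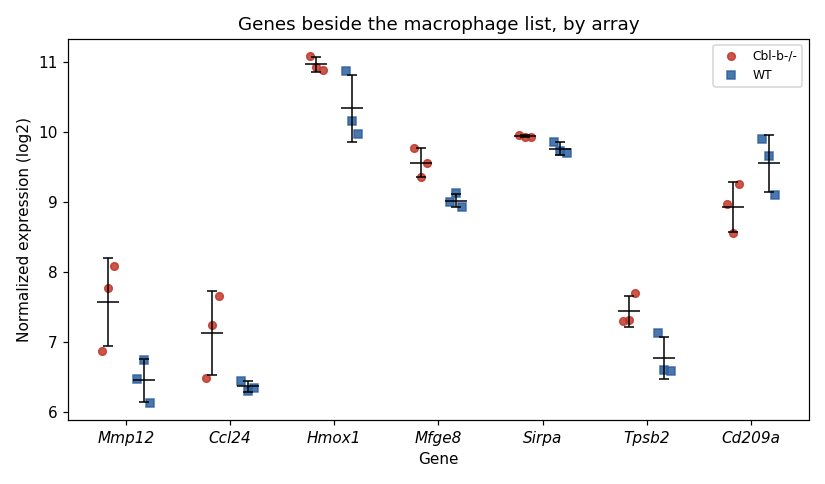
Array values (vertical axis, normalized log2 expression) of 7 genes outside the list of 39 (horizontal axis). Red circles are the 3 Cbl-b-/- arrays and blue squares the 3 WT arrays, with black marks for mean and SD. Mmp12, Ccl24, Hmox1, Mfge8, Sirpa and Tpsb2 are higher in every Cbl-b-/- array, and Cd209a overlaps.

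The arrays carried the markers of skin: the mean level was 10.99 to 11.46 over 7 keratinocyte genes and 10.16 to 10.41 over 8 fibroblast genes, and 0 of these 15 lay under the background level. Cblb was lower in Cbl-b-/- skin (8.61, 8.69 and 8.61, against 9.90, 9.66 and 9.72 in WT), with adjusted p = 0.0782 from limma. Of 9 mast cell genes, 8 had a log2 fold change above 0 and 1 (Tpsb2, a tryptase) met the thresholds as higher, or 11.1% against 0.276% of all transcript clusters and 0.216% of those with 1 gene symbol. Their mean level was 6.57 to 7.18 in Cbl-b-/- arrays and 6.27 to 6.68 in WT arrays. Their part in the macrophage values was not tested.

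**Figure D5:**
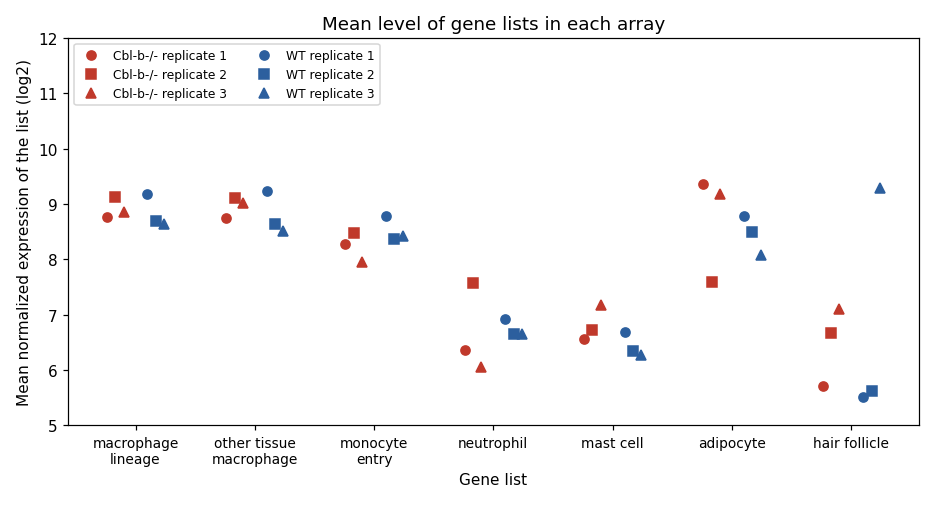
Mean normalized expression (vertical axis, log2) of 7 gene lists (horizontal axis) in each array, with Cbl-b-/- in red, WT in blue and the marker shape giving the replicate. The macrophage lineage list spans 8.77 to 9.13 in Cbl-b-/- and 8.63 to 9.18 in WT arrays, and the hair follicle list is highest in WT replicate 3 (9.28).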

How the data were processed

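Dorsal skin RNA (Affymetrix Mouse Gene 1.0 ST array) was profiled for 3 Cbl-b-/- and 3 WT mice 24 h after UVB. The deposited values are log2 intensities from the authors' robust multichip averaging (background correction, quantile normalization and median polish) in Partek Genomics Suite (version 6.6 in the methods, 6.5 in the submitters' processing notes). Groups came from the genotype labels. Rows were named through the platform annotation: 21789 carried 1 gene symbol, and each of the 39 genes had 1 such row. Cbl-b-/- and WT arrays were compared with limma 3.58.1 (R 4.3.3) on all 35556 rows, without a filter, and p-values were adjusted by Benjamini and Hochberg over all rows. The fit was tested on simulated data. The study's one-way analysis of variance, here the methods' t-test, other normalizations, array weights, a filter, a replicate block and leaving out each array were the alternatives. The rule for named genes took members that met the thresholds, did not overlap, reached 1.5-fold or were 1 of 5 lineage markers, and from other lists those past the thresholds or up to 2 that did not overlap. The members and lists were chosen with earlier results of these data known, and the background level after the values were seen. Of the 39 genes, 30 had a RefSeq promoter window, and for 3 with several the first listed was used. Precision is limited by having 3 arrays per genotype, and an exact two-sided permutation test of 3 against 3 arrays cannot give a p below 0.1. Unirradiated skin was not analysed here.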

Additional observations from a re-analysis of the deposited data

How the results depend on the processing

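Over all rows, 434 met the study's thresholds, and the count was 267 with the methods' test, 176 among rows above the median level, 453 with a replicate block and 428 to 790 with 1 array left out. Among the 39 genes, the count of higher genes was 0 among rows above the median level, where Vsig4 was not tested, and 1 to 3 with 1 array left out. The count of lower genes was 1 with array weights and 0 to 2 with 1 array left out. Their median log2 fold change was -0.13 to 0.13 with 1 array left out. The cause of these shifts was not tested beyond the arrays and rows left out. The alternatives were followed for 51 genes: the 39 members, the genes that the naming rule took from other lists, and Cblb. Directions of all 51 held under the alternatives that kept every array, and leaving out 1 array turned 21 of them. The log2 fold changes then ran from -0.19 to 0.27 for Adgre1, -0.13 to 0.16 for Spi1, -0.27 to 0.06 for Fcgr3, -0.03 to 0.15 for Timd4, -0.15 to 0.25 for Mpeg1, -0.15 to 0.24 for Cybb, -0.04 to 0.27 for Tyrobp, -0.15 to 0.06 for Apoe, -0.55 to 0.08 for Fcgr1, -1.09 to 0.46 for Trem1, -0.17 to 0.44 for Folr2, -0.61 to 0.14 for Cd14, -0.3 to 0.92 for Retnla, -0.04 to 0.22 for Gpnmb, -0.3 to 0.03 for Lyz2, -0.33 to 0.06 for Fcgr2b, -0.57 to 0.19 for Fcgr4, -0.22 to 0.09 for Fcer1g, -0.36 to 0.01 for Mrc1, -0.21 to 0.05 for Arg1 and -0.07 to 0.27 for Aif1. Genes of other lists named after their values were seen were not among the 51. Of these, Syk (-0.26 to 0.2), C1qb (-0.13 to 0.4), C1qc (-0.25 to 0.09), Csf1 (-0.04 to 0.12) and Il34 (-0.07 to 0.31) also turned with 1 array left out. C1qa, Ccr2, Cx3cr1, Ccl2, Ccl12 and Dock1 did not. Vsig4, Mmp12 and Cblb met the thresholds in every fit that tested them, whereas Cd163 crossed them with array weights and Ccl24 fell short there. Replicate numbers are shared between genotypes. The correlations of deviations from the group means were 0.233, 0.0924 and 0.247 for equal numbers, and -0.327 to 0.232 for unequal ones. Each Cbl-b-/- replicate correlated best with the WT replicate of its number, but WT replicate 2 correlated best with Cbl-b-/- replicate 1 (0.232). No pairing was assumed, and a shared batch of equal numbers was not tested beyond this check and the replicate block. With the replicate block, Cd209a and Myh2 fell short of the thresholds, and no member's call changed. Averaging several rows of a gene gave no value, because each member has 1 row.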

Other observations

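In genes of other cell types, Cd209a, Myh2 and the mast cell gene Tpsb2 met the study's thresholds. Each was 1 gene of its list, or 9.09% for Cd209a, 9.09% for Myh2 and 11.1% for Tpsb2. Those shares stand against 1.22% of all transcript clusters and 0.496% of those with 1 gene symbol. The lists of the remaining cell types held none, and all lists were drawn up with earlier results of these data known. Cd209a, a lectin of dermal dendritic cells and 1 of 11 measured dendritic and Langerhans cell genes, read 8.98, 8.56 and 9.27 in Cbl-b-/- skin, against 9.90, 9.67 and 9.11 in WT skin. It met the thresholds as lower in limma (log2 fold change -0.63, standard error 0.25, adjusted p = 0.749), but not in the methods' test, and the genotypes overlapped. Cd3d, a chain of the T cell receptor complex, read 4.53, 4.54 and 4.55 in Cbl-b-/- skin, against 4.25, 4.34 and 4.18 in WT skin, all under the background level of 5.43. Myh2, a myosin of fast muscle fibers, met the thresholds as higher in limma (0.85, standard error 0.28), and the methods' test did not call it, while the mean level of 11 skeletal muscle genes was 9.41 to 10.56 in Cbl-b-/- arrays and 9.80 to 10.58 in WT arrays. Elane, a neutrophil elastase gene, and Csf2, a growth factor of myeloid cells, did not meet the thresholds, and Elane lay under the background level in 4 of 6 arrays and Csf2 in all 6.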
